A study of Bos taurus with 18 samples.

Results

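The layers of the bovine preovulatory follicle were compared before the luteinising hormone (LH) surge: theca, the vascular outer wall, against antral granulosa, the granulosa cells aspirated from the follicle cavity. Theca and antral granulosa of cows D, F and G, taken before any GnRH was given, went on 3 Affymetrix 3' expression arrays each, so 6 of the 18 arrays of the series are compared. Each cow gave 1 dominant follicle, and both populations of a cow come from that follicle, so every difference was taken within cows. The other arrays hold membrane-associated granulosa of the same cows, and the 3 populations of cows A, B and C at 22 h after GnRH, which was used to induce the surge. No treatment is stated for the 3 cows before LH, and neither breed nor age is given in the sources used here. The labels name no marker or sorting step, so the theca arrays read the whole separated layer with whatever vessels, stroma and leukocytes came with it, and the antral arrays read cells drawn with the follicular fluid.

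In a follicle before ovulation, theca cells and granulosa cells share the making of oestradiol. Theca cells respond to LH and turn cholesterol into androgen with CYP17A1, and granulosa cells, which respond to follicle stimulating hormone (FSH), turn that androgen into oestradiol with aromatase, CYP19A1. The theca is also a connective tissue with blood vessels, smooth muscle and immune cells. The granulosa is an avascular epithelium that is separated from it by a basement membrane.

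Before LH, genes of connective tissue and smooth muscle led the differences toward theca, where the androgen enzyme CYP17A1 was also higher. The lactate exporter SLC16A3 and the calcium-binding GUCA1A led those toward antral granulosa, where the oestradiol enzymes HSD17B1 and CYP19A1, the FSH receptor and the angiogenic factor VEGFA were also higher. All values are log2 signals, where 1 unit is a 2-fold difference. Differences are theca minus antral granulosa in 3 cows, ± standard error of the fit. That error pools the residual spread of all 18 arrays, so a gene has the same error before and after LH. It does not measure the spread of the difference between the 3 cows, which can be smaller or larger. A probe set, the array's unit of measurement, was called at an adjusted p below 0.05 (limma, Benjamini-Hochberg over 24016 probe sets). Of these, 8899 (37.1%) were called, 3582 of them higher in theca and 5317 higher in antral granulosa. Each gene was read from its brightest probe set. Of 9155 genes, 1783 (19.5%) were called higher in theca and 2007 (21.9%) higher in antral granulosa, and the median difference over all genes was -0.08. The 3 theca arrays and the 3 antral arrays did not overlap for 49.8% of genes.

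Sizes were unequal between the directions. Among called genes, 974 were higher in theca and 461 higher in antral granulosa by 2-fold or more. At 4-fold or more the counts were 461 and 84, at 16-fold or more 123 and 1, and at 64-fold or more 36 and 0. The median size of a called difference was 1.10 for genes higher in theca and 0.67 for genes higher in antral granulosa. The 6 arrays had medians between 5.74 and 5.84, and arrays of the same population correlated at 0.982 to 0.987 over probe sets. Without cow F the count of probe sets higher in antral granulosa was 3431, and without cow D or G it was 4135 and 3631. The files hold no detection calls. A level below 4.62 is called dim here, since 8006 of the 24016 probe sets average less than that over the 18 arrays. A gene that was dim on every array of 1 population gets a bound, the mean of the brighter population minus 4.62, written as a difference of at least that size. The adjusted p beside a bound is that of the fitted difference and does not test the bound. Where only some arrays of a population were dim, the fitted difference is given with the dim arrays at their measured values, so its size is less certain. This touches COL1A2, NID2, TGFBR2, RAMP2 and ZP2, each above the limit on 1 of 3 antral arrays, and CCN2, KIT, IGFBP3, STC1, SERPING1, RARRES1 and CCND1, each on 2 of 3. It also touches EBD and PKP2, above the limit on 1 of 3 theca arrays, FSHR, ESR2, MMP16 and GDF9, on 2 of 3, and CA2, on 2 of 3 theca and 1 of 3 antral arrays. IHH and OXTR, dim on all theca arrays, were above the limit on 2 of 3 antral arrays, so their bounds are less certain too.

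**Figure D1:**
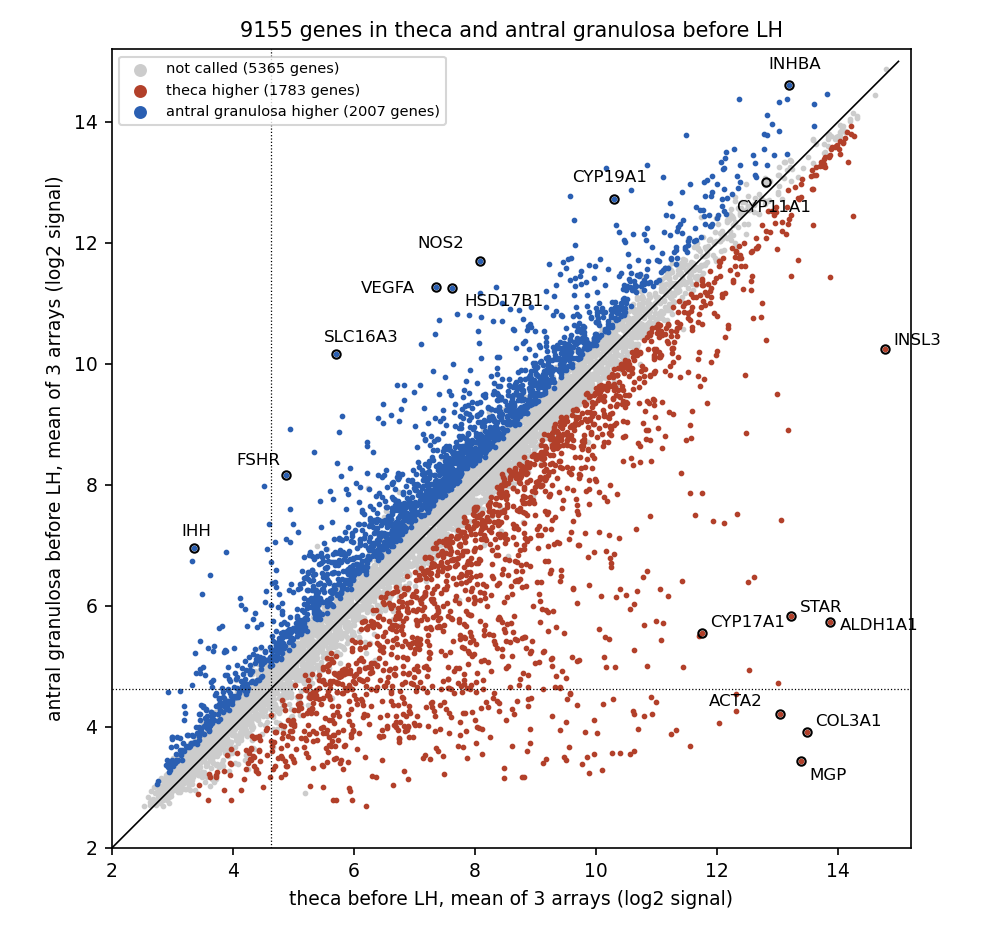
Mean log2 signal of each of 9155 genes in theca (horizontal) and antral granulosa (vertical) before LH, 3 arrays each, coloured by the call and with the dim limit of 4.62 dotted. The points below the diagonal spread farther from it than those above, which is the excess of large differences toward theca (123 genes against 1 at 16-fold or more).

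Both labels were set against marker genes. The lists were chosen with earlier results of these data known, so their counts describe the arrays and do not test the labels. Of 12 measured theca markers 6 (50%, against 19.5% of all genes) were called higher in theca and none higher in antral granulosa. The log2 of their summed signal was 15.06 to 15.23 on theca arrays, against 10.79 to 11.61 on antral arrays. Such a sum follows its brightest members, here INSL3, which averaged 14.78 in theca and 10.25 in antral granulosa. Membrane granulosa of the same cows lay between, at 11.61 to 14.29. Of 16 granulosa markers, 12 (75%, against 21.9% of all genes) were called higher in antral granulosa and 1, KRT18, higher in theca. Their summed level was 15.27 to 16.01 on theca arrays, against 16.88 to 16.95 on antral arrays. Granulosa markers were thus bright on theca arrays as well, with 11 to 13 of 16 above the dim limit, against 14 or 15 on antral arrays. In theca of cow G the summed granulosa level was lowest, at 15.27, against 16.01 in cow D and 15.86 in cow F. In bulk RNA, fewer cells of a type and less RNA per cell cannot be told apart. The part of these marker levels in the differences given here was not tested. Among the granulosa markers FOXL2 and KRT8 and among the theca markers PTCH1 were dim or near the limit in both populations, and FOXL2 was not called (-0.28 ± 0.16, adjusted p = 0.201).

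Connective tissue genes led the differences toward theca. MGP, a matrix protein that inhibits calcification, read 13.38, 13.24 and 13.53 in theca of cows D, F and G, against 3.44, 3.40 and 3.45 in antral granulosa. The antral values were dim in every cow, and the difference was at least 8.76 (adjusted p = 1.36e-06), which is at least 433-fold. Its 3 dimmer probe sets did not follow: all were called higher in antral granulosa, and only 1 of them, at -1.23, was above the dim limit in both populations. COL3A1, a chain of fibrillar collagen, read 13.17, 13.54 and 13.75 in theca, against 4.07, 4.31 and 3.36 in antral granulosa. It too was dim on all antral arrays, and higher in theca by at least 8.86 (adjusted p = 1.07e-06). Its partner in the wall, the type I collagen chain COL1A2, read 12.71, 13.07 and 13.27 in theca, against 4.55, 5.08 and 4.57 in antral granulosa, a difference of 8.28 ± 0.54 (adjusted p = 5.53e-07). ACTA2, the actin of smooth muscle, read 12.66, 13.00 and 13.45 in theca and 4.07, 4.15 and 4.41 in antral granulosa, with a difference of at least 8.41 (adjusted p = 2.96e-07). For these 4 genes the lowest theca array lay more than 7 units above the highest antral array.

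Enzymes, secreted proteins and other matrix genes made up the rest of the 15 largest. ALDH1A1, which makes retinoic acid from retinaldehyde, read 13.99, 13.68 and 13.91 in theca, against 6.83, 4.98 and 5.40 in antral granulosa. It was bright on every theca array, and its highest antral value was in cow D (difference 8.13 ± 0.69, adjusted p = 3.38e-06). The lipocalin APOD was higher in theca by at least 7.70, the small leucine-rich proteoglycan OGN by at least 7.42 and the matricellular protein SPARCL1 by at least 6.93. NID2, a linker of basement membranes, differed by 7.76 ± 0.50 as fitted, with 2 of 3 antral arrays dim, and the matrix-associated growth factor CCN2 by 7.58 ± 0.39. COL12A1, a collagen of fibril surfaces, differed by at least 6.70 and COL15A1, a collagen of basement membrane zones, by at least 5.94. SCG2, a granin of secretory granules, was higher by at least 6.61 and the kinase DCLK1 by at least 6.0. The highest adjusted p among these 10 genes was 1.42e-05. Membrane granulosa of the same cows held intermediate levels of several: MGP averaged 9.96, COL3A1 10.76 and ACTA2 8.69.

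The largest difference toward antral granulosa was that of SLC16A3, which exports lactate from cells. It read 5.88, 6.04 and 5.20 in theca, against 10.72, 10.16 and 9.59 in antral granulosa, a difference of -4.45 ± 0.25 (adjusted p = 2.36e-07). Its 2 dimmer probe sets were not called. VEGFA, the growth factor of blood vessels, read 7.47, 7.07 and 7.53 in theca and 12.34, 11.38 and 10.08 in antral granulosa. The theca arrays lay close together and the antral arrays spread over more than 2 units, with cow D highest (difference -3.91 ± 0.39, adjusted p = 1.02e-05). NOS2, the inducible nitric oxide synthase, read 8.31, 8.33 and 7.60 in theca, against 12.04, 11.92 and 11.16 in antral granulosa, and differed by -3.63 ± 0.40 (adjusted p = 2.15e-05). GUCA1A, a calcium-binding activator of guanylate cyclase known from photoreceptors, read 4.80, 5.32 and 4.73 in theca, against 9.21, 10.54 and 7.01 in antral granulosa. Its difference was -3.97 ± 0.43 (adjusted p = 2.08e-05), and the antral value of cow G was the lowest of the 3.

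Genes of lipid sensing, vitamin A uptake and defence followed. PPARG, a lipid-sensing nuclear receptor, differed by -3.33 ± 0.37, the ephrin ligand EFNA5 by -3.23 ± 0.38, STRA6, which takes up retinol, by -3.19 ± 0.23 and GCLC, the rate-limiting enzyme of glutathione synthesis, by -3.15 ± 0.25. STRA6 was bright in both populations, at 9.41, 9.62 and 9.69 in theca and 13.23, 12.79 and 12.29 in antral granulosa. ENPEP, an aminopeptidase that cleaves angiotensin II, was dim on every theca array and higher in antral granulosa by at least 2.11 (adjusted p = 2.03e-05). The beta-defensins EBD and DEFB4A varied widely between cows. EBD read 5.23, 4.20 and 4.12 in theca, against 10.30, 7.73 and 5.93 in antral granulosa, and DEFB4A 6.48, 4.70 and 4.83 in theca, against 10.56, 8.55 and 6.55 in antral granulosa. In both populations cow D held the highest value of each, and cow G the lowest antral value. Their differences were -3.47 ± 0.70 (adjusted p = 0.00207) and -3.21 ± 0.61 (adjusted p = 0.00142). Probes of such related genes can bind each other's RNA, and the 2 cannot be told apart here. Membrane granulosa of the same cows averaged 4.59 for EBD and 5.16 for DEFB4A, near the theca means of 4.52 and 5.34. SLC16A3, VEGFA and NOS2, in contrast, averaged 8.83, 9.98 and 11.27 in membrane granulosa, above theca.

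**Figure D2:**
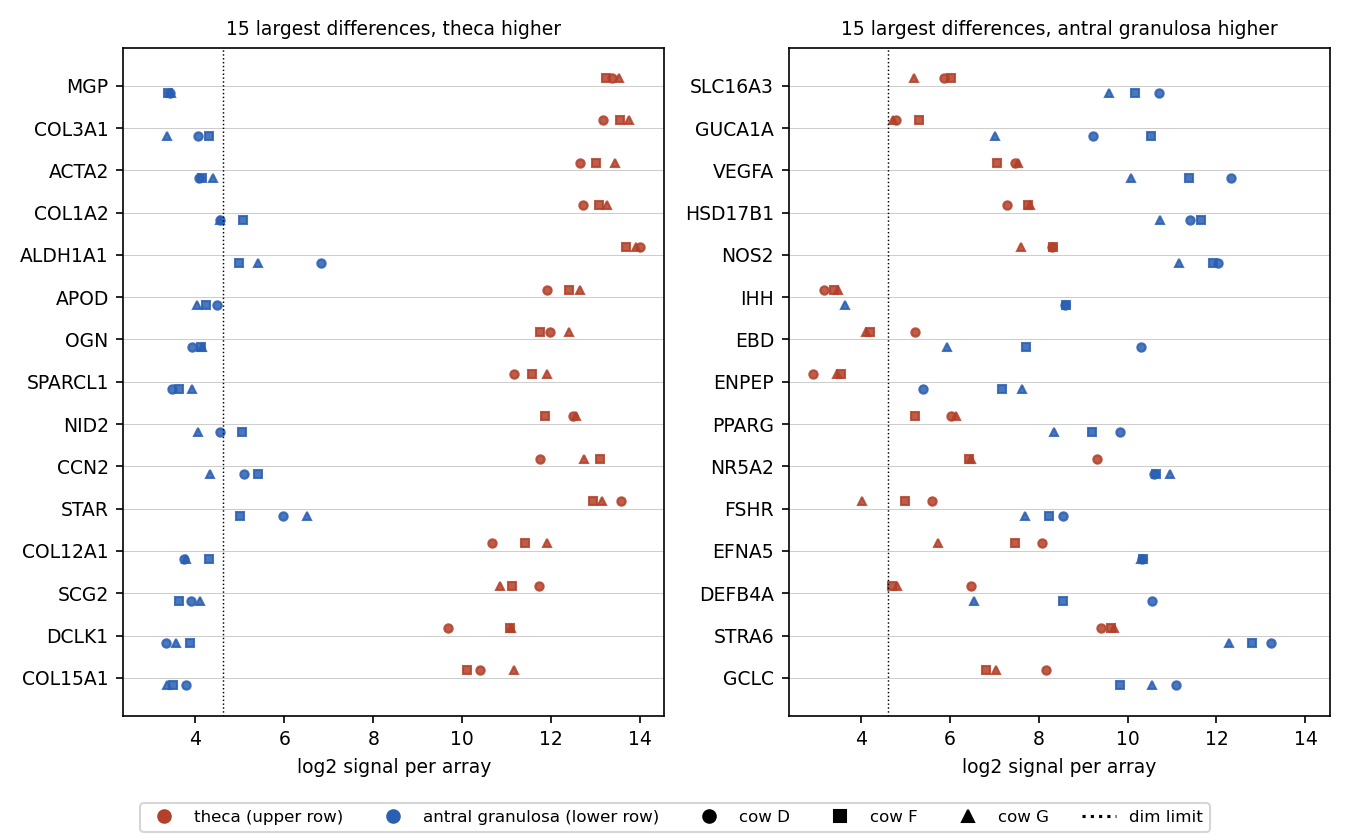
Log2 signal on each array for the 15 genes with the largest called difference toward theca (left panel) and toward antral granulosa (right panel), theca in the upper row and antral granulosa in the lower row of each gene, symbols by cow and the dim limit of 4.62 dotted. Most genes of the left panel are dim on antral arrays, while most genes of the right panel are above the limit in theca too, and IHH, EBD and DEFB4A spread widely between cows.

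Named steps of steroid synthesis differed in direction. STAR, which carries cholesterol into mitochondria, read 13.57, 12.95 and 13.15 in theca, against 5.98, 5.0 and 6.51 in antral granulosa, a 169-fold difference (7.40 ± 0.80, adjusted p = 1.9e-05). CYP11A1, which cleaves the cholesterol side chain in the next step, read 13.18, 12.23 and 13.00 in theca and 13.39, 12.48 and 13.12 in antral granulosa. Its levels were high and overlapped, with a difference of -0.20 ± 0.50 (adjusted p = 0.79). Within cows D, F and G the CYP11A1 differences were -0.21, -0.25 and -0.12, closer together than this error. The antral arrays after LH, which also enter the error, had an SD of 2.69. FDX1, which passes electrons to CYP11A1, read 13.17, 12.37 and 12.90 in theca, against 10.12, 10.29 and 10.75 in antral granulosa, and was higher in theca by 2.42 ± 0.21 (adjusted p = 4.09e-06). HSD3B1, which makes progesterone from pregnenolone, was lower in theca by a small amount, at 12.16, 11.22 and 12.03 in theca and 12.51, 12.47 and 13.34 in antral granulosa. Its difference of -0.97 ± 0.30 (adjusted p = 0.0245) was not called without cow F (adjusted p = 0.154) or G (0.161), or with no cow block (0.435).

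Androgen and oestradiol steps lay on opposite sides. CYP17A1, which makes androgen, read 12.67, 10.48 and 12.11 in theca, against 5.81, 5.40 and 5.42 in antral granulosa, and was higher in theca by 6.21 ± 0.66 (adjusted p = 1.59e-05). Cow F had the lowest theca value, and antral values stayed within 0.5 of each other. POR, the electron donor of CYP17A1 and CYP19A1, was lower in theca (-1.26 ± 0.25, adjusted p = 0.00176). CYP19A1, the aromatase, read 10.85, 11.82 and 8.21 in theca, against 11.97, 13.02 and 13.18 in antral granulosa, a difference of -2.43 ± 0.61 (adjusted p = 0.00785). The populations did not overlap, but theca of cows D and F held high levels and theca of cow G the lowest, and without cow G the call ended (adjusted p = 0.0531). HSD17B1, which makes oestradiol from oestrone, read 7.30, 7.76 and 7.81 in theca and 11.40, 11.65 and 10.72 in antral granulosa, and differed by -3.64 ± 0.29 (adjusted p = 2.09e-06). NR5A2, a nuclear receptor that drives steroid genes in granulosa of mice, read 9.31, 6.43 and 6.48 in theca, against 10.59, 10.64 and 10.95 in antral granulosa (difference -3.32 ± 0.62, adjusted p = 0.00115). Its theca value in cow D stood well above those of the other cows. Of 18 measured genes of steroid synthesis, 5 were called higher in theca and 5 higher in antral granulosa, with a median of 0.03. That is 27.8% each way, near the 19.5% and 21.9% of all genes.

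INSL3, a peptide hormone of theca cells, read 14.68, 14.84 and 14.83 in theca, against 10.79, 9.92 and 10.04 in antral granulosa. In theca of cows F and G no probe set was brighter, so its difference of 4.54 ± 0.53 (adjusted p = 3.35e-05) can be understated. The antral arrays were also far above the dim limit. KIT, the receptor of the granulosa factor KITLG, read 9.40, 8.73 and 9.11 in theca, against 7.51, 5.54 and 4.17 in antral granulosa, where cow D was highest and cow G dim (difference 3.34 ± 0.49, adjusted p = 0.00022). KITLG itself was dim on all 6 arrays.

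**Figure D3:**
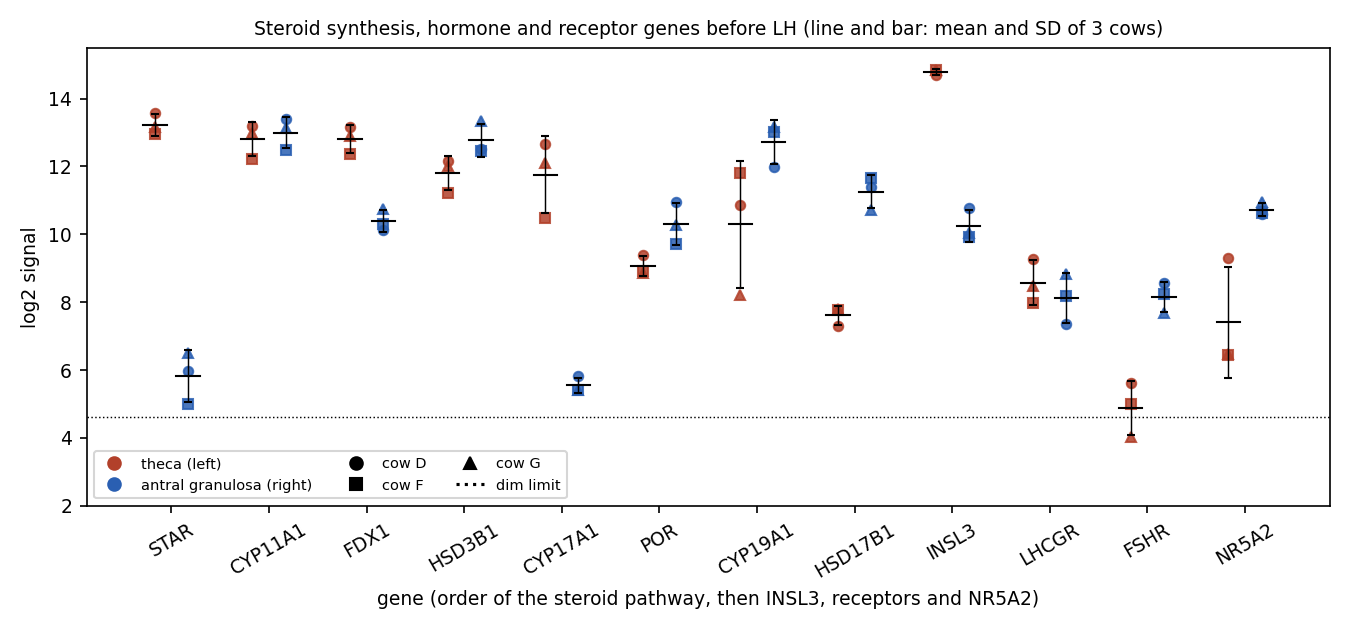
Log2 signal per array of steroid synthesis genes in pathway order, then INSL3, the gonadotropin receptors and NR5A2, theca left and antral granulosa right for each gene, symbols by cow, with lines and bars for the mean and SD of 3 cows and the dim limit dotted. STAR, FDX1, CYP17A1 and INSL3 lie higher in theca, HSD17B1, CYP19A1 and FSHR higher in antral granulosa, and CYP11A1 and LHCGR overlap.

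Among hormone receptors, the gonadotropin receptors differed in pattern. FSHR read 5.61, 5.0 and 4.02 in theca, against 8.55, 8.23 and 7.69 in antral granulosa, a difference of -3.28 ± 0.28 (adjusted p = 3.29e-06). LHCGR, which binds LH, read 9.28, 7.96 and 8.46 in theca and 7.36, 8.19 and 8.83 in antral granulosa and was not called (0.44 ± 0.32, adjusted p = 0.31). In theca cow D had the highest LHCGR and in antral granulosa the lowest. The orphan nuclear receptors NR2F1 and NR2F2 were higher in theca by 2.45 ± 0.21 (adjusted p = 3.29e-06) and 3.38 ± 0.24 (adjusted p = 1.09e-06). The angiotensin receptor AGTR1 was dim on all antral arrays and higher in theca by at least 3.24 (adjusted p = 1.53e-05). The oestrogen receptor ESR2 (-1.70 ± 0.20, adjusted p = 3.37e-05) and the IGF receptor IGF1R (-1.43 ± 0.21, adjusted p = 0.000213) were higher in antral granulosa. A dimmer probe set of IGF1R was not called (-0.25, adjusted p = 0.319). OXTR, the oxytocin receptor, was dim on all theca arrays and higher in antral granulosa by at least 0.03 (adjusted p = 0.000828), with overlapping arrays. Of 22 receptors measured, 8 were called higher in theca and 6 in antral granulosa (median 0.06). In percent these are 36.4% and 27.3%, against 19.5% and 21.9% of all genes.

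Inhibin and activin subunits were bright in both populations and higher in antral granulosa. INHA, the inhibin alpha subunit, read 14.08, 13.83 and 13.55 in theca, against 14.58, 14.36 and 14.45 in antral granulosa (-0.65 ± 0.12, adjusted p = 0.00133). INHBA, a subunit of activin A and inhibin A, read 13.57, 13.49 and 12.52 in theca, against 14.67, 14.52 and 14.63 in antral granulosa (-1.41 ± 0.33, adjusted p = 0.00489). On at least 1 antral array INHA lay within 0.32 and INHBA within 0.23 of the brightest probe set, so these differences can be understated. The INHBA call ended without cow G (adjusted p = 0.0642) and with no cow block (0.144). FST, which binds activin, differed by -2.01 ± 0.26 (adjusted p = 8.97e-05). AMH, anti-Müllerian hormone, read 7.27, 7.28 and 5.93 in theca and 9.90, 10.43 and 8.63 in antral granulosa, lowest in cow G in both, and differed by -2.83 ± 0.26 (adjusted p = 6.13e-06).

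Receptors and intracellular members of the family followed. TGFBR2, a receptor of TGF-beta, read 9.59, 9.82 and 9.28 in theca, against 5.84, 3.98 and 3.79 in antral granulosa, dim in cows F and G (as fitted, 5.03 ± 0.34, adjusted p = 7.34e-07), and its ligand TGFB2 was higher in theca by at least 2.94 (adjusted p = 5.11e-06). The type I receptor ACVR1 was higher in theca by 1.70 ± 0.20 (adjusted p = 3.79e-05). ID1 was higher in theca (3.34 ± 0.33, adjusted p = 1.03e-05) and ID2 lower (-1.73 ± 0.21, adjusted p = 5e-05), both being inhibitors of helix-loop-helix factors that BMP signals induce. With no cow block ID2 was not called (adjusted p = 0.106). Another ID1 probe set, dim in both populations, was called higher in antral granulosa (-0.35, adjusted p = 0.03). SMAD2, which carries activin and TGF-beta signals to the nucleus, was higher in antral granulosa (-1.81 ± 0.13, adjusted p = 8.82e-07). Of 29 genes of inhibin, activin and BMP signalling, 7 (24.1%, against 19.5% of all genes) were called higher in theca and 10 (34.5%, against 21.9% of all genes) in antral granulosa (median -0.08).

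Extracellular matrix was the list with the largest median, 4.53. Of 32 fibrillar and stromal matrix genes 26 (81.2% against 19.5% of all genes) were called higher in theca and 2 higher in antral granulosa. FN1, the adhesive glycoprotein fibronectin, read 12.03, 12.88 and 12.91 in theca, against 6.29, 6.87 and 6.25 in antral granulosa, a difference of 6.14 ± 0.31 (adjusted p = 1.35e-07). SPARC, a collagen-binding matricellular protein, differed by 4.27 ± 0.27 (adjusted p = 4.73e-07), LUM, a proteoglycan of collagen fibrils, by 4.83 ± 0.35 (adjusted p = 1.08e-06), and its relative ASPN by at least 4.85 (adjusted p = 3.86e-07). VCAN, a large proteoglycan that binds hyaluronan, went the other way, at 10.70, 11.01 and 10.05 in theca and 12.78, 12.83 and 12.99 in antral granulosa (-2.28 ± 0.25, adjusted p = 2.12e-05). Its other 2 probe sets gave -2.28 and -2.51. The other member called higher in antral granulosa was THBS1 (-0.46 ± 0.15, adjusted p = 0.0244), a thrombospondin whose probe sets disagreed: 3 others differed by 5.18, 2.84 and 4.04 as fitted, all called higher in theca. Its call also ended without cow F (adjusted p = 0.0997) or G (0.11), so no direction is given for it.

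Components of basement membranes were mostly higher in theca, 8 of 13, with 1 higher in antral granulosa and a median of 1.76. That is 61.5% and 7.7%, against 19.5% and 21.9% of all genes. NID1, which links laminin to collagen IV, read 9.29, 9.74 and 10.62 in theca, against 3.09, 3.25 and 3.37 in antral granulosa, where all arrays were dim (at least 5.26, adjusted p = 3.27e-06). The laminin chain LAMB1 was higher in theca by 5.01 ± 0.31 (adjusted p = 4.73e-07). COL4A1, a chain of collagen IV, was bright in both, at 13.06, 13.13 and 13.46 in theca and 11.63, 11.33 and 11.40 in antral granulosa (1.76 ± 0.15, adjusted p = 2.74e-06). LAMB2, another laminin chain, was the member higher in antral granulosa (-1.39 ± 0.18, adjusted p = 9.55e-05).

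Of 32 proteases and inhibitors, 10 were called higher in theca and 4 in antral granulosa (median 0.15). These counts are 31.25% and 12.5%, against 19.5% and 21.9% of all genes. ADAMTS1, a protease that cleaves VCAN, read 10.15, 10.59 and 9.72 in theca, against 5.96, 5.03 and 5.45 in antral granulosa (4.67 ± 0.22, adjusted p = 9.36e-08). TIMP1, an inhibitor of matrix metalloproteinases, was higher in theca by 4.32 ± 0.26 (adjusted p = 3.75e-07), the complement inhibitor SERPING1 by 4.45 ± 0.34 (adjusted p = 1.64e-06) and TFPI2, an inhibitor of serine proteases, by at least 4.49 (adjusted p = 1.1e-06). SERPINE2, which inhibits plasminogen activators and thrombin, was bright in both populations and lower in theca, at 13.43, 13.43 and 12.64 in theca and 14.34, 14.32 and 14.45 in antral granulosa (-1.21 ± 0.18, adjusted p = 0.000267). Without cow D, 2 members were called higher in antral granulosa.

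**Figure D4:**
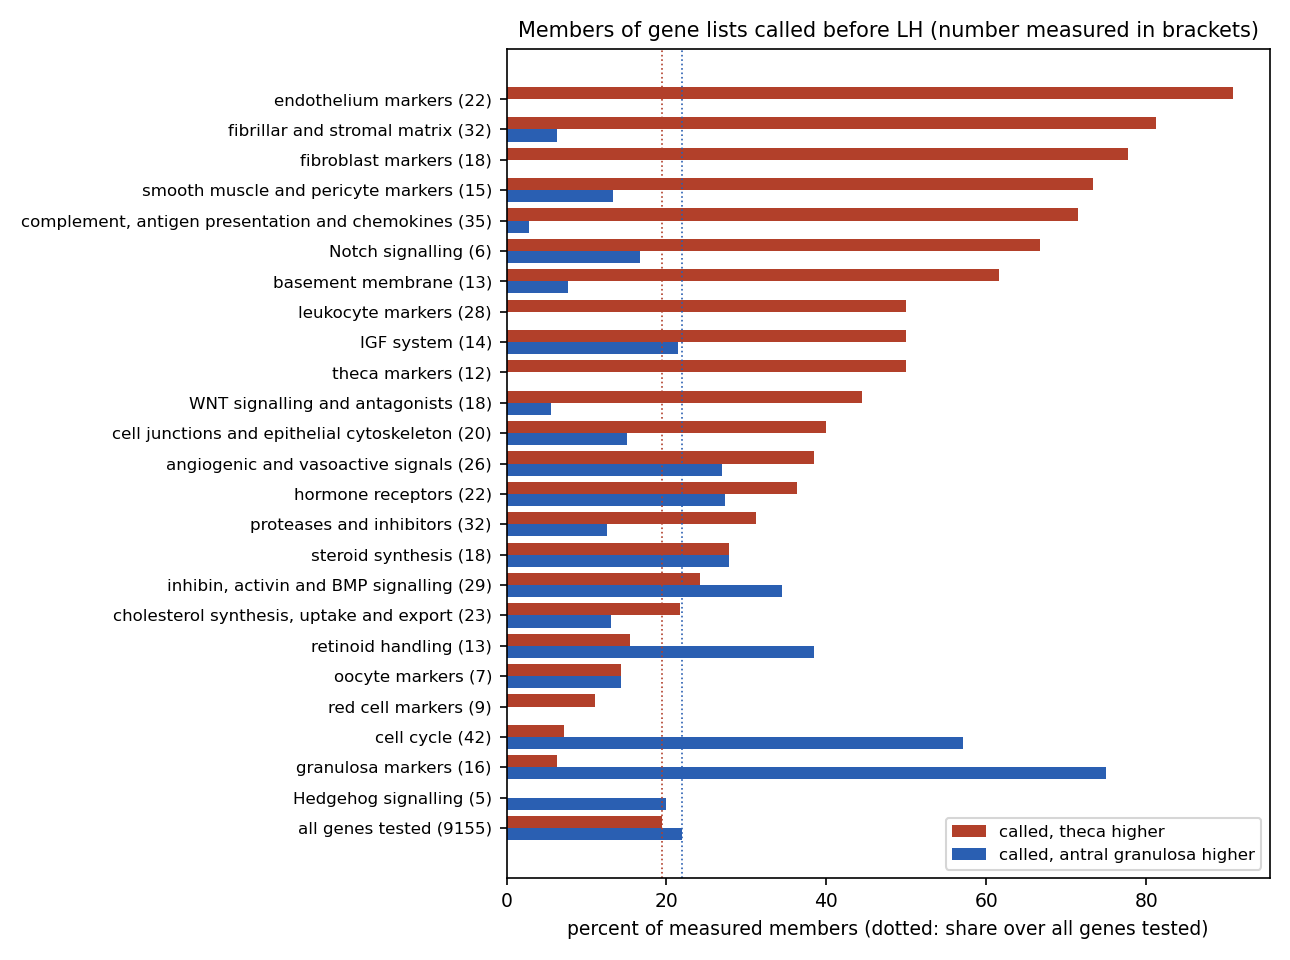
Percent of measured members called higher in theca (upper bar) and higher in antral granulosa (lower bar) for each of 24 gene lists and for all 9155 genes, with the number measured in brackets and the shares over all genes (19.5% and 21.9%) dotted. Endothelium, stromal matrix, fibroblast and smooth muscle lists have the longest theca bars, and granulosa markers and cell cycle the longest antral bars.

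Markers of the other cells of the follicle wall were higher in theca. Of 18 fibroblast markers 14 (77.8%, against 19.5% of all genes) were called higher in theca and none in antral granulosa (median 4.32). With cow D left out, 1 of these markers was called higher in antral granulosa. Their summed level was 15.46 to 15.85 on theca arrays, against 10.05 to 10.29 on antral arrays. Of 15 markers of smooth muscle and pericytes, 11 were higher in theca and 2 in antral granulosa (median 2.55). These are 73.3% and 13.3%, against 19.5% and 21.9% of all genes. TAGLN, an actin-binding protein of smooth muscle, was higher by at least 6.17 (adjusted p = 4.57e-07), and the myosin MYH11 by 4.52 ± 0.28 (adjusted p = 4.79e-07). MYLK, the kinase of myosin light chain, read 12.82, 13.03 and 13.34 in theca, against 7.98, 7.24 and 7.02 in antral granulosa (5.65 ± 0.42, adjusted p = 1.18e-06). The exceptions were CSPG4, a proteoglycan of pericytes (-1.54 ± 0.29, adjusted p = 0.00119), and the adhesion molecule MCAM (-0.89 ± 0.30, adjusted p = 0.0351). Dimmer probe sets of CSPG4, at -0.13 and -0.51, were not called. The MCAM call ended without cow D (adjusted p = 0.289) or F (0.108) and with no cow block (0.0815).

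Of 22 endothelium markers, 20 (90.9%, against 19.5% of all genes) were called higher in theca and none in antral granulosa (median 3.14). The log2 of their summed signal was 12.37 to 13.17 on theca arrays, against 8.96 to 9.77 on antral arrays. PECAM1, an adhesion molecule of endothelial junctions, read 9.07, 9.75 and 9.49 in theca, against 4.95, 4.93 and 4.87 in antral granulosa (4.52 ± 0.33, adjusted p = 1.24e-06). EMCN, an endothelial sialomucin, was dim on all antral arrays and higher in theca by at least 5.19 (adjusted p = 2.04e-06). RAMP2, which pairs with the adrenomedullin receptor, read 9.99, 10.70 and 10.16 in theca, against 4.97, 4.16 and 4.24 in antral granulosa, dim in cows F and G (as fitted, 5.83 ± 0.41, adjusted p = 9.54e-07). The theca levels of these 3 genes were highest in cow F.

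Leukocyte markers had a smaller median difference. Of 28, 14 (50%, against 19.5% of all genes) were called higher in theca and none in antral granulosa (median 0.78). Without cow F the 14 became 7, while the probe sets called higher in theca fell from 3582 to 2744 over the whole array. The summed level of the 28 markers was 12.16, 13.24 and 12.25 in theca of cows D, F and G, against 11.93, 10.44 and 10.08 in antral granulosa. The antral array of cow D thus came close to the theca array of that cow. AIF1, a calcium-binding protein of macrophages, read 8.99, 9.67 and 8.95 in theca, against 8.20, 6.19 and 5.83 in antral granulosa (2.47 ± 0.45, adjusted p = 0.00101). FCGR3A, an Fc receptor, was higher in theca by at least 2.03 (adjusted p = 0.000348) and LCP1, a leukocyte actin-bundling protein, by at least 1.29 (adjusted p = 0.00124), both highest in theca of cow F. Of 35 genes of complement, antigen presentation and chemokines, 25 were called higher in theca and 1 in antral granulosa (median 2.50). That 1 was lost when any 1 cow was left out. The counts with all cows are 71.4% and 2.9%, against 19.5% and 21.9% of all genes. The immunoproteasome subunits PSMB8 and PSMB9 differed by 2.77 ± 0.20 (adjusted p = 1.08e-06) and 2.74 ± 0.24 (adjusted p = 3.99e-06), and the chemokine CXCL14 by at least 2.52 (adjusted p = 4.67e-08).

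Most red cell and oocyte markers were near or below the dim limit. Of 9 red cell markers only CA2, carbonic anhydrase 2, was called, and the globin genes HBA, HBB, HBG and HBM were not. CA2 alone is 11.1% of the list, against 19.5% of all genes higher in theca. Without cow D, 2 red cell markers were called higher in antral granulosa. CA2 read 7.87, 6.85 and 3.23 in theca, against 4.65, 3.75 and 3.46 in antral granulosa, with overlapping values, and its call ended without cow D (adjusted p = 0.075) or F (0.0852). The summed red cell level was 7.29 to 8.71 on theca arrays, against 7.51 to 7.79 on antral arrays. Of 7 oocyte markers, 1 was called in each direction (14.3%, against 19.5% and 21.9% of all genes). ZP2, a protein of the egg coat, read 5.47, 6.80 and 6.15 in theca, against 4.89, 4.38 and 3.82 in antral granulosa (1.78 ± 0.44, adjusted p = 0.00749), and was not called without cow F (adjusted p = 0.0656) or G (0.0721).

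Signals that pass between the layers were examined by family. Of 26 angiogenic and vasoactive genes, 10 were called higher in theca and 7 in antral granulosa (median -0.10). That is 38.5% and 26.9%, against 19.5% and 21.9% of all genes. Beside VEGFA, its relative PGF was higher in antral granulosa, at 5.82, 6.11 and 6.73 in theca and 8.38, 8.56 and 7.63 in antral granulosa (-1.97 ± 0.25, adjusted p = 7.1e-05). The hypoxia-inducible factors were split. HIF1A was higher in antral granulosa (-0.96 ± 0.13, adjusted p = 9.05e-05), while EPAS1 read 10.74, 11.28 and 10.38 in theca, against 5.88, 6.38 and 4.80 in antral granulosa (5.11 ± 0.57, adjusted p = 2.51e-05). EDN1, the vasoconstrictor endothelin-1, was higher in theca by at least 2.55 (adjusted p = 1.19e-05) and the apelin receptor APLNR by at least 2.27 (adjusted p = 9.25e-06). Another APLNR probe set was not called (0.19, adjusted p = 0.454).

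In the IGF system, 7 of 14 genes were higher in theca and 3 in antral granulosa (median 0.42). The 7 are 50%, against 19.5% of all genes, and the 3 are 21.4%, near the 21.9% of all genes. IGF2, a growth factor, read 10.91, 10.80 and 11.53 in theca, against 5.41, 5.29 and 5.62 in antral granulosa (5.64 ± 0.44, adjusted p = 1.63e-06). A second IGF2 probe set agreed in direction (2.86), and the other 2, dim or close to it, had the opposite sign, 1 of them called (adjusted p = 0.0297). The binding proteins IGFBP3 and IGFBP6 were higher in theca by 4.01 ± 0.31 (adjusted p = 1.79e-06) and 3.88 ± 0.43 (adjusted p = 2.16e-05). STC1, which inhibits the protease that frees IGF from its binding proteins, read 10.13, 11.18 and 10.58 in theca, against 6.40, 4.98 and 4.44 in antral granulosa (5.36 ± 0.43, adjusted p = 2.25e-06).

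Notch genes higher in theca were 4 of 6, against 1 in antral granulosa (median 1.17). These few genes make 66.7% and 16.7%, against 19.5% and 21.9% of all genes. The ligand JAG1 differed by 3.53 ± 0.27 (adjusted p = 1.55e-06) and MFNG, which modifies Notch with sugars, by 3.09 ± 0.34 (adjusted p = 2.03e-05). DLL4, a ligand known from vessels, was higher in antral granulosa within each cow, at 8.31, 7.32 and 6.43 in theca and 9.46, 8.28 and 7.21 in antral granulosa (-0.96 ± 0.18, adjusted p = 0.00113). Its values overlapped between cows, and with no cow block it was not called (adjusted p = 0.251). Of 18 genes of WNT signalling, 8 were higher in theca and 1 in antral granulosa (median 0.26), and that 1 was lost without cow G. In percent these counts are 44.4% and 5.6%, against 19.5% and 21.9% of all genes. The secreted WNT antagonist FRZB was higher in theca by at least 3.39 (adjusted p = 3.68e-05), the WNT enhancer RSPO3 by 3.34 ± 0.53 (adjusted p = 0.000367) and the DKK family member DKK3 by at least 5.39 (adjusted p = 4.67e-08). DKK3 read 9.50, 10.49 and 10.05 in theca, against 3.81, 3.88 and 4.01 in antral granulosa.

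Hedgehog ligands from granulosa act on theca precursors in mice. IHH, such a ligand, read 3.19, 3.40 and 3.49 in theca, against 8.59, 8.61 and 3.64 in antral granulosa. It was bright in antral granulosa of cows D and F and dim in cow G. Its fitted difference was -3.59 ± 0.84 (adjusted p = 0.00525), and within cows D, F and G it was -5.41, -5.21 and -0.16. The bound of 2.32 takes in the dim antral array of cow G and does not hold in that cow. The call ended without cow F (adjusted p = 0.077). Membrane granulosa of the same cows averaged 4.35 for IHH. PTCH1, the Hedgehog receptor, was dim on all 6 arrays, and IHH was the only 1 of 5 measured Hedgehog genes called. That 1 is 20% of the list, against 21.9% of all genes higher in antral granulosa.

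Of 13 retinoid genes, 2 (15.4%, against 19.5% of all genes) were higher in theca and 5 (38.5%, against 21.9% of all genes) in antral granulosa (median -0.0007). Beside ALDH1A1, the retinoid-responsive gene RARRES1 read 11.01, 12.44 and 11.67 in theca, against 7.22, 5.30 and 4.02 in antral granulosa (6.20 ± 0.68, adjusted p = 2.16e-05). Beside STRA6, the retinoic acid carrier CRABP2 was dim on all theca arrays and higher in antral granulosa by at least 0.79 (adjusted p = 0.000154), a call that ended with no cow block (adjusted p = 0.0507). The 5 became 3 when cow D, F or G was left out.

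Of 23 genes of cholesterol synthesis, uptake and export, 5 were called higher in theca and 3 in antral granulosa (median 0.19). That is 21.7% and 13.0%, against 19.5% and 21.9% of all genes, so neither count exceeds the background by much. LPL, a lipase that frees fatty acids from lipoproteins, read 10.35, 10.47 and 10.51 in theca, against 8.17, 8.63 and 8.40 in antral granulosa (2.05 ± 0.29, adjusted p = 0.000173). The apolipoprotein APOE differed by 1.44 ± 0.23 (adjusted p = 0.000406) and MVK, a kinase of the mevalonate pathway, by 1.26 ± 0.12 (adjusted p = 7.96e-06). Higher in antral granulosa were NPC1, which moves cholesterol out of lysosomes (-1.20 ± 0.13, adjusted p = 2.31e-05), and SOAT1, which stores it as esters (-1.07 ± 0.19, adjusted p = 0.000839).

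Cell junction genes numbered 8 higher in theca and 3 in antral granulosa of 20 (median 0.30), and 5 higher in theca without cow G. With all cows that is 40% and 15%, against 19.5% and 21.9% of all genes. CLDN11, a tight junction protein, read 9.46, 11.14 and 10.20 in theca, against 3.29, 4.07 and 3.35 in antral granulosa (at least 5.64, adjusted p = 3.82e-07). CLDN5, the claudin of endothelium, was higher in theca by 3.54 ± 0.45 (adjusted p = 6.4e-05), the desmosomal cadherin DSC2 by at least 2.71 (adjusted p = 4.29e-07) and KRT18, an epithelial keratin, by 1.30 ± 0.38 (adjusted p = 0.0179). The KRT18 call ended without cow F (adjusted p = 0.0557) or G (0.111) and with no cow block (0.282). CDH2, the cadherin between granulosa cells, read 7.59, 6.60 and 5.23 in theca, against 10.01, 9.20 and 8.81 in antral granulosa (-2.86 ± 0.39, adjusted p = 0.000115). GJA1, the gap junction protein of granulosa, was bright in both and lower in theca (-0.69 ± 0.12, adjusted p = 0.000556).

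Cell cycle genes were mostly higher in antral granulosa, 24 of 42 (57.1% against 21.9% of all genes), with 3 higher in theca and a median of -0.76. CCND2, the cyclin of granulosa proliferation in mice, read 9.89, 9.42 and 9.60 in theca, against 12.61, 12.56 and 11.95 in antral granulosa (-2.73 ± 0.21, adjusted p = 1.71e-06). BIRC5, a protein of dividing chromosomes, differed by -1.95 ± 0.19 (adjusted p = 8.75e-06), UBE2C, which takes part in the exit from mitosis, by -1.64 ± 0.19 (adjusted p = 3.12e-05) and CENPF, a kinetochore protein, by -1.37 ± 0.16 (adjusted p = 2.93e-05). Theca levels of these 4 genes were well above the dim limit. CDKN1C, an inhibitor of cyclin-dependent kinases, went the other way, at 9.92, 10.40 and 9.83 in theca and 6.21, 5.13 and 5.54 in antral granulosa (4.42 ± 0.41, adjusted p = 6.06e-06), though its 2 dimmer probe sets were not called. The cyclin CCND3 was higher in theca by 1.57 ± 0.23 (adjusted p = 0.000193), and not called with no cow block (adjusted p = 0.0992).

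Cows differed in the size of the compartment difference. For genes called higher in theca, the median within-cow difference was 0.87 in cow D, 1.20 in cow F and 1.21 in cow G. For genes called higher in antral granulosa it was -0.69, -0.71 and -0.65. Of the 1783 genes higher in theca, 33 had the opposite sign in cow D, 3 in cow F and 1 in cow G. Antral granulosa of cow D held the highest antral value of ALDH1A1, KIT, TGFBR2, STC1, RARRES1 and AIF1 among the 3 cows. Its theca, leukocyte and endothelium marker levels were also the highest of the antral arrays, at 11.61, 11.93 and 9.77. Its fibroblast level was the lowest, at 10.05, and its smooth muscle level, 13.35, was below the 13.55 of cow F. The smooth muscle sum of antral arrays mostly follows the marker TPM1. That gene averaged 12.95 in antral granulosa and 12.80 in theca and was not called. Theca of cow D had the lowest fibroblast, smooth muscle, endothelium and leukocyte levels of the theca arrays, at 15.46, 14.82, 12.37 and 12.16. Its theca marker level, 15.16, was not the lowest (15.06 in cow F). The part of these levels in the smaller differences of cow D was not tested. Other probe sets of the called genes chosen for naming were compared with the ones used. Of 89, 45 were called in the same direction, 11 in the opposite direction and 33 were not called. Of 1793 other probe sets of all called genes, 750 were called in the same direction, 66 in the opposite direction and 977 were not called.

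The same comparison in the 3 other cows at 22 h after GnRH shares no array with the one before LH. After LH, 22.2% of genes were called higher in theca and 20% higher in antral granulosa. Of the 1783 genes higher in theca before LH, 1140 were called the same way after LH, 91 the opposite way and 552 were not called. Of the 2007 higher in antral granulosa, 927 were called the same way, 162 the opposite way and 918 were not called. The difference between the times was tested within the same fit and called for 15% of all genes. It was called for 443 of the 1783, of which 415 were smaller or turned after LH, and for 467 of the 2007, of which 445 were smaller or turned. These 910 genes became 527 with no block for cow. These genes had been chosen for their call before LH, so the excess of smaller differences is a description only. Times are compared between different cows, 3 at each.

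For ALDH1A1, PECAM1 and INSL3 the difference between the times was not called. ALDH1A1 differed by 8.06 ± 0.69 after LH, against 8.13 ± 0.69 before. PECAM1 differed by 4.37 ± 0.33 after LH and 4.52 ± 0.33 before, and INSL3 by 4.09 ± 0.53 after and 4.54 ± 0.53 before. INSL3 was at or near the top of the scale in theca before LH, so a change in its difference can be hidden. For these 3 genes the difference between the times was -0.07 ± 0.98, -0.15 ± 0.47 and -0.45 ± 0.74 (adjusted p = 0.983, 0.91 and 0.804). Of the 22 endothelium markers 18 were higher in theca after LH, against 20 before, and the difference between the times was called for 1. Over all genes, 22.2% were higher in theca after LH and 15% had a called difference between the times.

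For other genes the difference between the times was called or the call after LH was lost or turned. CYP17A1 differed by 0.32 ± 0.66 after LH, against 6.21 ± 0.66 before LH, a difference between the times of -5.88 (adjusted p = 0.00122). Its theca mean was 11.75 before and 5.48 after LH, and its antral mean 5.55 and 5.16. CYP11A1 was higher in theca after LH by 2.38 ± 0.50, against an uncalled -0.20 ± 0.50 before LH (2.57, adjusted p = 0.0353). NID2 differed by 1.05 ± 0.50 after LH, against 7.76 ± 0.50 before (-6.71, adjusted p = 8.81e-05). Its antral mean was 4.55 before and 11.82 after LH, and its theca mean 12.31 and 12.87. CLDN11, DKK3 and CXCL14, each dim in antral granulosa before LH, differed by -0.77 ± 0.41, 0.02 ± 0.27 and 0.11 ± 0.16 after LH, none of them called. TGFB2, higher in theca before LH, was lower there after LH, with a difference of -1.83 ± 0.30 (adjusted p = 0.000563). On the antral side, VEGFA differed by -0.58 ± 0.39 after LH, against -3.91 ± 0.39 before, and NOS2 by 0.09 ± 0.40 after, against -3.63 ± 0.40 before (differences between the times 3.33 and 3.72, adjusted p = 0.0017 and 0.000924). After LH the theca and antral means were 7.63 and 8.21 for VEGFA and 5.67 and 5.58 for NOS2.

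The cell cycle list had the opposite majority after LH. Of its 42 genes, 32 were higher in theca and none in antral granulosa after LH, against 3 and 24 before LH. The median was 1.25 after LH, against -0.76 before LH, and the difference between the times was called for 35. Of all genes, 22.2% were higher in theca after LH and 15% had a called difference between the times. CCND2 differed by 2.20 ± 0.21 after LH, against -2.73 ± 0.21 before LH (4.93, adjusted p = 2.93e-06). BIRC5 differed by 1.84 ± 0.19 after LH and -1.95 ± 0.19 before LH (3.78, adjusted p = 7.44e-06).

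**Figure D5:**
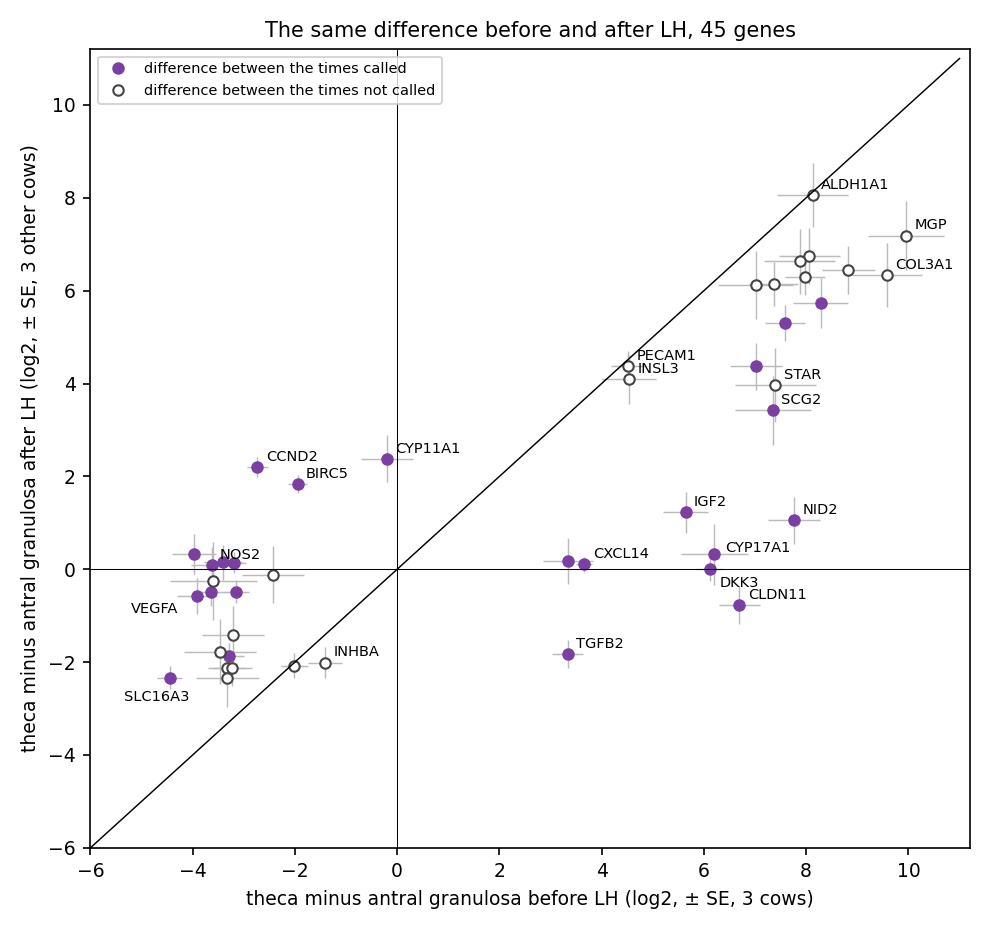
Theca minus antral granulosa after LH (vertical) against before LH (horizontal), log2 ± standard error of the fit with 3 cows at each time, for 45 genes chosen by size, list or function, as fitted also where a population was dim. Filled points mark the 24 genes whose difference between the times was called, points on the diagonal have equal differences at both times, and CCND2 and BIRC5 lie on the opposite side of 0 after LH.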

How the data were processed

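RNA of theca, antral granulosa and membrane granulosa of 6 cows was measured on 18 Affymetrix arrays. RNA was extracted with Trizol and labelled by 3' in vitro transcription, per the labels' protocols. The deposited log2 values were made by RMA in Partek 6.5, per the submitters' processing notes; the settings are not given in the sources used here. RMA normalises all arrays together, which can shrink differences of very bright and very dim probe sets. Arrays have no read depth, and their number limits the precision.

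From the file's 24128 probe sets 112 AFFX controls were left out. The 18 arrays were fitted with lmFit and eBayes of limma 3.58.1 (R 4.3.3), with 6 group means and cow as a fixed block (8 residual degrees of freedom), and p-values were adjusted by Benjamini-Hochberg. The block rests on the shared follicle: deviations of the 2 populations of a cow from their group means correlated at -0.02, 0.20 and 0.16 in cows D, F and G. Between different cows these correlations ran from -0.23 to 0.09, so the value of cow D does not stand out from them. Symbols came from the platform annotation, which can be old: 13292 probe sets had 1 symbol, 86 several and 10638 none. The 9155 genes were read from the probe set of highest mean over all arrays.

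Members and the 24 gene lists were chosen with earlier results of these data known. Genes were named by rule: the 15 largest called differences each way that had 1 sign in all 3 cows, up to 4 called members of each list and direction with the smallest adjusted p, and 18 genes of follicle function. Not every gene chosen by these rules is described in the text. The globin genes HBA, HBB, HBG and HBM, KRT8 and TPM1 are named in addition. The fit was tested on simulated data. Figures were drawn with matplotlib 3.10.9 in Python 3.11.15. The alternatives are under the dependence on the processing.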

Additional observations from a re-analysis of the deposited data

Results flagged for a closer look

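For 57 of 123 genes named above, theca minus antral granulosa after LH differed from the same difference before LH. The test was the interaction term of the fit (limma, highest adjusted p 0.0496). By the same test 15% of all genes were called, and 910 of the 3790 genes called before LH. Most of the 123 were named for a large or called difference before LH, so the count of 57 is a description only. CCND1, PKP2, MMP16 and GDF9, named above only as partly dim, were not among the 123, nor were the globin genes, KRT8 and TPM1. Values are the difference after LH minus that before LH, on the log2 scale and as fitted, also where a population was dim, so that a negative value for a gene higher in theca means a smaller or turned difference after LH. The 2 times are different cows, 3 at each. No explanation was tested for any of them.

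Among genes higher in theca before LH, TGFB2 (-5.17) was called lower in theca after LH. Genes higher in theca before and not called after LH were CLDN11 (-7.47), NID2 (-6.71), DKK3 (-6.10), CYP17A1 (-5.88), CDKN1C (-4.78), AGTR1 (-3.66), CXCL14 (-3.56), DSC2 (-3.20), KIT (-3.16) and FDX1 (-1.92). Genes higher in theca at both times were IGF2 (-4.41), SCG2 (-3.93), ADAMTS1 (-3.67), FN1 (-3.24), TIMP1 (-3.04), ASPN (-2.74), DCLK1 (-2.65), COL1A2 (-2.55), CCN2 (-2.28), JAG1 (-2.16), TGFBR2 (-2.04), TAGLN (-2.01), SERPING1 (-2.00), LAMB1 (-1.85), SPARC (-1.78), NR2F1 (-1.57), PSMB8 (-1.07), MVK (-0.82) and COL4A1 (-0.82). All of these values are negative, so each difference was smaller or turned after LH.

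Genes higher in antral granulosa before LH and higher in theca after LH were CCND2 (4.93), BIRC5 (3.78), UBE2C (3.51), DLL4 (2.69), CENPF (2.55) and MCAM (2.21). Genes higher in antral granulosa before and not called after LH were GUCA1A (4.30), NOS2 (3.72), ENPEP (3.56), STRA6 (3.34), VEGFA (3.33), HSD17B1 (3.14), GCLC (2.66), ID2 (2.12), CSPG4 (2.11), PGF (1.92), ESR2 (1.85), CRABP2 (1.78), LAMB2 (1.16), IGF1R (1.07), GJA1 (1.00), OXTR (0.91) and NPC1 (0.84). Some of them averaged below the dim limit of 4.62 in both populations after LH, such as ENPEP, GCLC and OXTR. Genes higher in antral granulosa at both times were SLC16A3 (2.11), FSHR (1.40) and SMAD2 (1.39). CYP11A1, which was not called before LH, was higher in theca after LH (2.57).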

How the results depend on the processing

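Alternatives changed 1 choice at a time. No called gene among the 123 changed direction under any alternative run. Under quantile normalization, arrays centred on their medians, 1 probe set per gene and eBayes with trend and robust, the calls of all 123 named genes stayed on the same side of the threshold. When the 8006 dimmest probe sets were left out, none of the 115 genes still tested changed either. The main counts were 8899 probe sets called, 3582 higher in theca and 5317 higher in antral granulosa. Tested with 1 probe set per gene, which has fewer tests, they were 3902, 1817 and 2085. Called only at 2-fold or more, they were 3251, 1934 and 1317. With only the 6 arrays compared, 3444 were higher in antral granulosa, and the cause was not tested. Leaving out cow D, F or G gave 6175 to 7349 called, 2744 to 3214 higher in theca and 3431 to 4135 higher in antral granulosa on the other 2 cows. Genes called before LH with a called difference between the times numbered 910, and 635 to 765 with a cow left out. Those called the same way at both times numbered 2067, and 1605 to 1747 with a cow left out.

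Without the replicate block for cow, 7220 probe sets were called, and the difference between the times was called for 527 genes. The pairing by cow thus moved the second count by over 1.5 times; 10 named genes lost their call (HSD3B1, INHBA, ID2, DLL4, THBS1, CCND3, CRABP2, KRT18, MCAM and CA2). With cow as a random block, HSD3B1, INHBA, DLL4 and KRT18 lost theirs. With only the 6 arrays compared, IHH, CYP19A1, THBS1, MCAM and CA2 did, with adjusted p from 0.0579 to 0.0869. Of the called probe sets, 40.3% were higher in theca, 31.5% after centring on medians and 59.5% at 2-fold or more. Signals near the top of the scale and below the dim limit bound what the arrays can show.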

Other observations

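Of 24016 probe sets, 10724 have no single gene symbol in the platform annotation and take no part in the gene counts. Of these, 1350 were called higher in theca and 2493 higher in antral granulosa, against 3582 and 5317 of all 24016 probe sets. At 16-fold or more, 80 were higher in theca and 1 in antral granulosa, against 233 and 2 of all 24016 probe sets. The largest differences were 8.55 toward theca and -4.12 toward antral granulosa, both as fitted. They are given no name here.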
